A study of Mus musculus with 3 samples.

Results

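The genes described here are 10 heat shock proteins and chaperones of mouse germ cells, listed by name, among 22843 genes measured in single testis cells. The list was drawn up with earlier results of these data known. They are the HSP70-family genes Hspa2, Hspa1l, Hspa4l, Hspa5 and Hspa8, the HSP90 gene Hsp90aa1, the mitochondrial pair Hspd1 and Hspe1, the HSP110 gene Hsph1 and the J-protein gene Dnajb1. The cells came from a knockdown of the long non-coding RNA gene Gm4665 in the testes of ICR mice. AAV9 carrying a hairpin and a red fluorescent protein was injected on postnatal day 21, with the control hairpin (shCtrl) on one side and a Gm4665 hairpin (shRNA1 or shRNA2, hairpin 1 and hairpin 2 here) in the contralateral testis. Somatic cells were removed, red fluorescent cells were sorted, and their 3' RNA ends were counted in droplets by unique molecular identifiers (UMIs). Each of the 3 conditions is 1 library with the cells of 3 mice, so no spread between animals could be measured and no test between conditions was made. The intervals below cover counting error only.

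Chaperones bind unfolded or assembling proteins and help them to fold. HSP70 proteins are driven by J-proteins, which bring them clients and start ATP hydrolysis, and by exchange factors, which release ADP, while HSP90 takes over clients such as kinases at a later step. Male germ cells are known for their own HSP70 forms: Hspa2 is made in spermatocytes and is needed to finish meiosis, and Hspa1l is a testis form of spermatids that does not require heat for its expression. In somatic cells heat shock factors bind inverted repeats of a GAA unit and induce chaperone genes, and a stress of the endoplasmic reticulum (ER) induces Hspa5, also called BiP, through the ER stress element.

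The promoters in which such letters were found are printed first, since they show where heat shock and ER stress letters lie beside these genes. RefSeq promoter entries (GRCm38.p6) were matched for 8 of the 10 members, and the 250 bases before each annotated start were searched on both strands. A heat shock pair was searched as GAANNTTC or TTCNNGAA, which each read the same on both strands, and the ER stress element as CCAAT, then 9 bases of any kind, then CCACG. Capitals mark these letters, and each sequence runs 5' to 3' along the gene's own strand.
Hspe1, chr1:55087898-55088147, plus strand: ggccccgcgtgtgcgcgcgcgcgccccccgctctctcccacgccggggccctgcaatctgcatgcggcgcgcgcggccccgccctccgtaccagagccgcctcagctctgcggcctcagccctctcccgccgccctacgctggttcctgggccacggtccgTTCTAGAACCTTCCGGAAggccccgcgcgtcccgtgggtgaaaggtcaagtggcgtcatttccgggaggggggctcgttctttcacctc
Hsph1, chr5:149636337-149636586, minus strand: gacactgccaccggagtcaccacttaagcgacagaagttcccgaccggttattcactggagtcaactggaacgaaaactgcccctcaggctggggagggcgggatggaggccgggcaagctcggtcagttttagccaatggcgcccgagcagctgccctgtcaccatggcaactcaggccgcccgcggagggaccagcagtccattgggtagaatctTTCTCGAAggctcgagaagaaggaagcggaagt
Hspa5, chr2:34771840-34772089, plus strand: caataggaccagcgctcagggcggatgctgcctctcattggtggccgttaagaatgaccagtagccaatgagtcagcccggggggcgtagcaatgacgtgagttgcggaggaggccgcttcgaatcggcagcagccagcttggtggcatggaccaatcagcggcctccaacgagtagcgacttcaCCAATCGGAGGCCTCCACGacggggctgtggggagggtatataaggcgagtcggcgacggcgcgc
The Hspe1 window held 3 heat shock pairs that overlap each other. One of the Hspd1 entries, on the opposite strand (chr1:55087933-55088182), held the same 3 pairs, because its window overlaps that of Hspe1. The Hspd1 entry before the annotated start of the gene span (chr1:55088244-55088493) held none. The genes lie head to head and their annotated spans overlap by 112 bases, a stretch that does not hold the pairs. Hsph1 held 1 pair and Hspa5 the ER stress element. Of 32851 promoter windows of this length, 12.8% held at least 1 pair, 1.46% held at least 2, and 0.113% held the ER stress element. The letters of a heat shock pair were not found in the windows of Hspa2, Hspa1l, Hspa4l, Hspa5 or Dnajb1. A match is a description of these letters only.

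The libraries held 1418 control, 1732 hairpin 1 and 1873 hairpin 2 cells with medians of 19366, 14668 and 16518 UMIs per cell. Pairs of libraries shared 5 to 7 cell barcodes. Gm4665, the targeted gene, was at 311, 52.8 and 79.1 counts per 1000000 UMIs (CPM) in the control, hairpin 1 and hairpin 2 libraries, the order used for all values below. Clustering without the chaperone genes and Gm4665 gave 14 germ cell clusters in 6 groups, and each name below stands for clusters that resemble that class in its markers. The groups were spermatogonia (26, 107 and 128 cells), leptotene to zygotene spermatocytes (19, 22 and 17), cluster 14 (85, 74 and 218), pachytene to diplotene spermatocytes (111, 278 and 289), round spermatids (404, 427 and 422) and elongating spermatids (635, 643 and 510). Cluster 14 had raised markers of both leptotene to zygotene and pachytene spermatocytes and was left unnamed. Clusters with macrophage or antibody-lineage markers held 19, 92 and 180 cells despite the removal of somatic cells, and clusters with mixed markers 119, 89 and 109. The groups were found in the same cells and libraries they describe, so differences between them are given as a description. Markers of elongating spermatids also made up 2.77%, 2.33% and 2.29% of the UMIs of spermatogonia, which is 12.4%, 10.7% and 9.72% of their level in elongating spermatids, so that low levels of spermatid genes in early cells cannot be told apart from free RNA.

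The 10 genes were spread over the whole course of germ cell development, each with its own stage. The group with the highest level was the same in all 3 libraries for 9 of the 10 genes: 3 were highest in spermatogonia, 1 in leptotene to zygotene spermatocytes, 1 in cluster 14, 2 in pachytene to diplotene spermatocytes, 1 in round and 1 in elongating spermatids. Hsph1 was the exception.

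**Figure D1:**
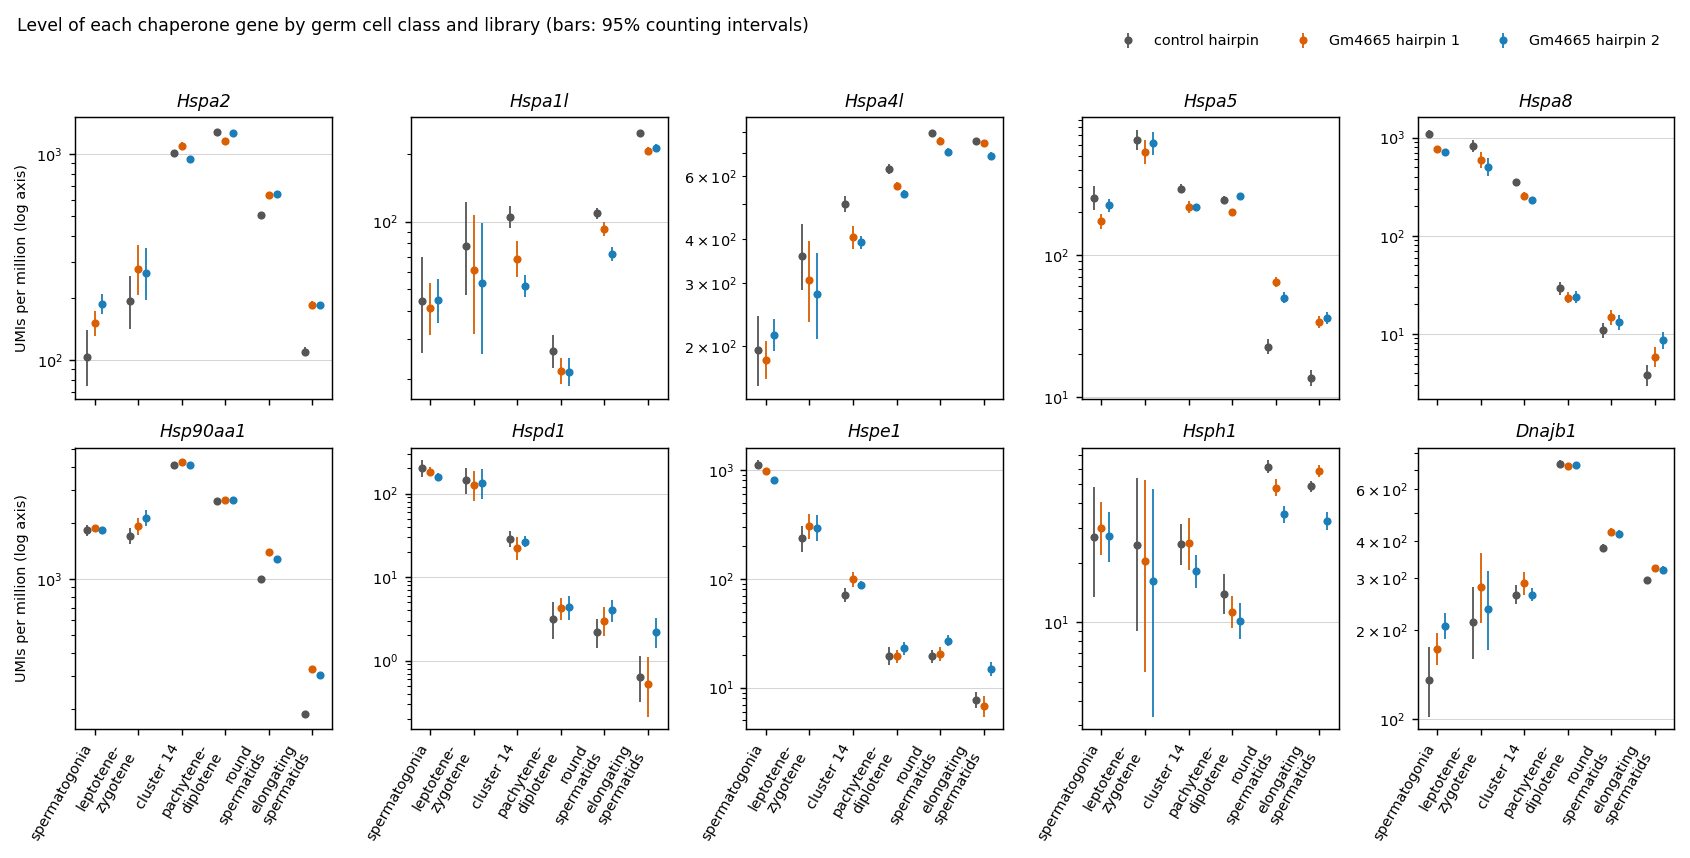
Level of each of the 10 genes (CPM, log axis, a scale of its own per gene) in the 6 germ cell groups, ordered from spermatogonia to elongating spermatids. Points are libraries (grey control, orange hairpin 1, blue hairpin 2) and bars 95% counting intervals; Hspa8, Hspd1 and Hspe1 are highest on the left of their panels and Hspa1l on the right.

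Hspa8 encodes the constitutive HSP70 of most cells and lies at chr9:40800984-40810087 on the plus strand (GENCODE vM21, mm10, as for all positions of genes below). Its level was 1083, 774 and 707 CPM in spermatogonia, 355, 252 and 233 in cluster 14, and 3.78, 5.85 and 8.69 in elongating spermatids. It was thus lower at each later group in every library, and spermatogonia exceeded elongating spermatids by 286, 132 and 81.4 times. Spermatogonia and leptotene to zygotene spermatocytes were not separated beyond the range of the libraries. The lincRNA Gm26825 matches the end of the Hspa8 transcript at 99.4% over 502 bases, so reads could be split between them, but it was listed at only 0.767, 1.04 and 1.95 CPM over all cells.

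Hspd1 (chr1:55077835-55088243, minus strand) and Hspe1 (chr1:55088132-55091307, plus strand) encode the chaperonin of mitochondria, Hsp60, and its lid, Hsp10. Hspd1 stood at 201, 182 and 158 CPM in spermatogonia, at 28.8, 22.5 and 26.7 in cluster 14 and at 3.12, 4.21 and 4.36 in pachytene to diplotene spermatocytes. Hspe1 stood at 1113, 976 and 809 CPM in spermatogonia and at 19.7, 19.5 and 22.9 in pachytene to diplotene spermatocytes. Both genes beside the promoter printed above were therefore low from pachytene on, in every library. The drop was not the same for both: from spermatogonia to leptotene to zygotene spermatocytes Hspe1 went to 234, 306 and 295 CPM, whereas Hspd1 stayed at 144, 128 and 134. The share of mitochondrial transcripts was likewise high in early cells, at 4.54%, 4.67% and 4.26% of UMIs in spermatogonia against 0.588%, 0.580% and 0.658% in cluster 5, the larger pachytene to diplotene cluster. Cluster 15 of the same group, with 6, 28 and 28 cells, had a share of 8.15%, 7.52% and 6.56%. In that cluster Hspe1 was at 0, 3.41 and 6.65 CPM and Hspd1 at 0, 3.41 and 3.33. Whether the mitochondrial share bears on the pair was not tested.

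Hspa5 (chr2:34771970-34777547, plus strand), the HSP70 of the ER, was highest in leptotene to zygotene spermatocytes at 649, 536 and 617 CPM. It was at 246, 202 and 260 CPM in pachytene to diplotene spermatocytes and lowest in elongating spermatids, at 13.5, 33.7 and 35.7. The leptotene to zygotene group is small, and the interval of its control value was 552 to 759 CPM.

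Hsp90aa1 (chr12:110690605-110702728, minus strand) encodes the inducible HSP90 of somatic cells and is constitutive in germ cells. It was highest in cluster 14, at 4086, 4227 and 4077 CPM, against 1820, 1878 and 1818 in spermatogonia and 188, 327 and 305 in elongating spermatids. The 3 libraries differed by little in spermatogonia, in cluster 14 and in pachytene to diplotene spermatocytes, where the level was 2601, 2651 and 2652 CPM.

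Hspa2 (chr12:76404176-76406938, plus strand) and Dnajb1 (chr8:83608193-83612653, plus strand), a J-protein gene whose product drives cytosolic HSP70, were highest in pachytene to diplotene spermatocytes. Hspa2 was at 103, 151 and 187 CPM in spermatogonia, at 1009, 1089 and 949 in cluster 14, at 1273, 1157 and 1265 in pachytene to diplotene spermatocytes and at 110, 185 and 184 in elongating spermatids. Dnajb1 was at 135, 173 and 207 CPM in spermatogonia, at 730, 720 and 725 in pachytene to diplotene spermatocytes and at 295, 324 and 320 in elongating spermatids. Both genes thus had 1 peak in meiosis, but Dnajb1 kept more of its level in spermatids. Dnajb1 was also lower in cluster 14 (264, 288 and 264 CPM), where Hspa2 was already near its peak.

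Hspa4l (chr3:40744495-40796103, plus strand), an HSP110-type exchange factor of the testis also called Apg-1, was at 194, 182 and 214 CPM in spermatogonia and reached 793, 756 and 703 CPM in round spermatids. Its level in elongating spermatids, 756, 745 and 686 CPM, overlapped that of round spermatids. Hspa1l (chr17:34972703-34979285, plus strand) was lowest in pachytene to diplotene spermatocytes at 26.6, 21.8 and 21.5 CPM, then stood at 109, 92.9 and 71.7 in round and 247, 206 and 212 in elongating spermatids. The antisense gene Gm10501 shares 1778 exon bases with Hspa1l, so without a stated strand of counting their reads cannot be told apart. Gm10501 itself was listed at 1.98, 1.14 and 2.78 CPM in elongating spermatids. The pachytene level of Hspa1l was 10.8%, 10.6% and 10.1% of its level in elongating spermatids, and the summed markers of elongating spermatids stood at 10.9%, 8.27% and 8.30% in the same comparison. A level of Hspa1l in pachytene to diplotene spermatocytes cannot be told apart from free RNA. In leptotene to zygotene spermatocytes Hspa1l stood at 31.6%, 29.7% and 25.3% of its elongating level and the markers at 18.1%, 14.3% and 11.2%. In cluster 14 the values were 42.6%, 33.3% and 24.4% for Hspa1l and 31.6%, 20.9% and 18.2% for the markers, so Hspa1l was above the markers in every library of both groups.

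Hsph1 (chr5:149614287-149636376, minus strand), the HSP110 gene with the single heat shock pair, was the gene without 1 common peak. It was at 61.4, 48.1 and 35.2 CPM in round and 48.7, 58.2 and 32.5 in elongating spermatids, so that hairpin 1 was highest in elongating spermatids and the other two libraries in round ones. In pachytene to diplotene spermatocytes it was at 13.96, 11.3 and 10.2 CPM, the lowest of its groups in each library.

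The stages add up to a change in the make-up of the 5 HSP70-family members listed here. Other genes of the family are not in these shares, such as Hspa9 at 86.9, 118 and 131 CPM and Hspa4 at 101, 113 and 113 CPM over all cells. Nor is the HSP110 gene Hsph1, so the shares are not those of the whole family. A share of the UMIs of the 5 HSP70-family genes counts 3' ends, with 1 UMI for each captured molecule whatever its length, and says nothing of protein. In spermatogonia Hspa8 gave 64.6%, 58.6% and 51.3% of these UMIs. In pachytene to diplotene spermatocytes Hspa2 gave 57.8%, 58.8% and 60.1%, and Hspa8 no more than 1.33%. In round spermatids Hspa4l gave 55.1%, 48.4% and 47.5% and Hspa2 35.0%, 40.5% and 43.4%. In elongating spermatids Hspa4l gave 66.9%, 63.3% and 60.9%, Hspa1l 21.9%, 17.5% and 18.8% and Hspa2 9.72%, 15.8% and 16.3%. The order of the stages was the same in the 3 libraries, while the share of Hspa2 in spermatids was higher and that of Hspa1l lower with both hairpins. The heat-inducible genes Hspa1a and Hspa1b, neighbours of Hspa1l, were at 2.95, 5.37 and 3.16 CPM and at 0.223, 0.939 and 0.448 CPM over all cells.

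**Figure D2:**
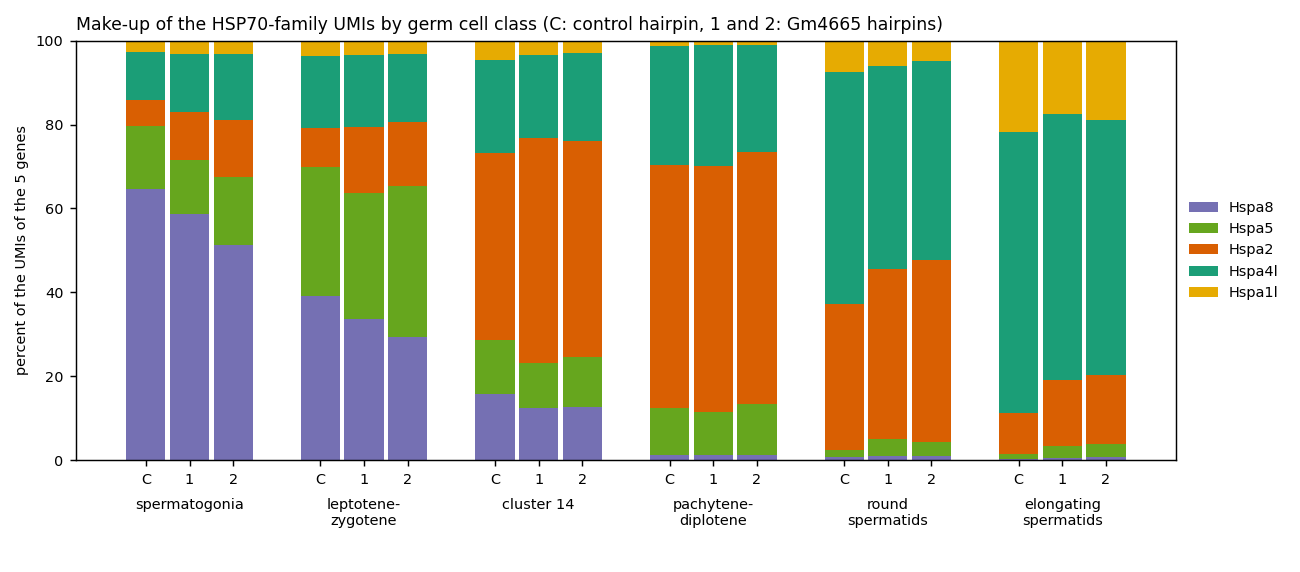
Share of each of the 5 listed HSP70-family members in their summed UMIs (y axis, percent) for each germ cell group and library (C control, 1 and 2 the hairpins). Hspa8 gives the largest share in spermatogonia, Hspa2 in pachytene to diplotene spermatocytes and Hspa4l in both spermatid groups, in all 3 libraries.

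Genes with the most similar course were sought over 12 sums (4 groups with at least 50 cells in each library, by 3 libraries) among 7185 genes. The points share libraries and depth, and the correlations are a description. The sums leave out spermatogonia and leptotene to zygotene spermatocytes. Hspd1 had a mean below 10 CPM over them and was not compared. Hspa2 was most like Dnaja1, another J-protein gene (Pearson r = 0.997), followed by the proteasome gene Psmb5 and the chaperonin gene Cct4 (both r = 0.997). Among the members compared, Hspa2 ran closest to Hsp90aa1 (r = 0.968), Hspa8 to Hspe1 (r = 0.95), and Hspa1l to Hsph1 (r = 0.868). Hspa2 and Hspa1l ran in opposite directions (r = -0.874). The gene most like Hspa5 was Vmp1, an ER membrane protein gene (r = 0.991), nearly tied with Uhrf1 and 1700029P11Rik (both r = 0.989). That most like Hsp90aa1 was Vapa (r = 0.999), also of the ER membrane, nearly tied with Snrpa and Eif3m (both r = 0.998).

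Within the meiotic and spermatid groups Hspa5 was very uneven between clusters. Cluster 15 of the pachytene to diplotene group held 6, 28 and 28 cells and had Hspa5 at 852, 1307 and 1370 CPM, against 237, 170 and 221 in the other pachytene to diplotene clusters. Cluster 6 of the round spermatids held 30, 130 and 49 cells and had it at 154, 286 and 348 CPM, against 18.6, 29.0 and 34.6 in the other round spermatid clusters. Among the 9 members that passed the filter in each comparison, Hspa5 was the 1 gene at least 1.5-fold higher in all 3 libraries, in both clusters. Of all genes tested, 11.9% passed that mark in cluster 15 and 10.1% in cluster 6, and 3.87% were as much lower in cluster 6, where no member was.

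Other ER chaperone genes were high in cluster 6 in all 3 libraries, and in cluster 15 mainly in the hairpin libraries, where the control had only 6 cells. In cluster 6 the mark was passed by 6 of 8 genes of ER folding (Canx, Calr, Clgn, Pdia3, Pdia6 and Pdilt), with median log2 differences of 1.5, 1.25 and 1.14 against 0.14, 0.01 and -0.04 over all genes, and by 3 of 6 genes of the unfolded protein response (Creld2, Manf and Sdf2l1). Hsp90b1, the HSP90 of the ER, was at 177, 277 and 261 CPM in cluster 6 against 31.8, 44.7 and 46.3 in the other round spermatids. In cluster 15 it was at 400, 1184 and 1091 CPM against 247, 162 and 184. Here 2 of 10 ER folding genes passed in all 3 libraries (Calr3 and Pdia6), beside 11.9% of all genes, with list medians of 0.11, 1.33 and 1.28. The 6 control cells of this cluster held only 64 UMIs of Hspa5, so lower values and zeros there rest on very few molecules. Canx was at 26.6 CPM in them against 49.4 in the other clusters. Pdia4 and P4hb had no UMI in them, but were at only 4.47 and 5.78 CPM in the other control clusters. Of 6 genes of the unfolded protein response, Atf4, Herpud1 and Manf passed. The cytosolic Hsp90aa1 was not uniformly higher: in cluster 6 it was at 1834, 1559 and 1142 CPM against 975.4, 1365 and 1279. In cluster 15 Hspe1 and Dnajb1 were at least 1.5-fold lower in all 3 libraries, where 9.6% of all genes were. Hspe1 had no UMI in the 6 control cells, against 19.9 CPM in the other control clusters. These clusters were found in the same cells, with the ER genes of the lists left out of the clustering, so the differences are a description. Both clusters had few UMIs per cell (medians of 12414, 9400 and 10596 in cluster 15, and of 11240, 8557 and 9915 in cluster 6) and many mitochondrial transcripts for their groups (8.15%, 7.52% and 6.56% of UMIs, and 1.43%, 1.89% and 2.11%). The part of either in the Hspa5 level was not tested.

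**Figure D3:**
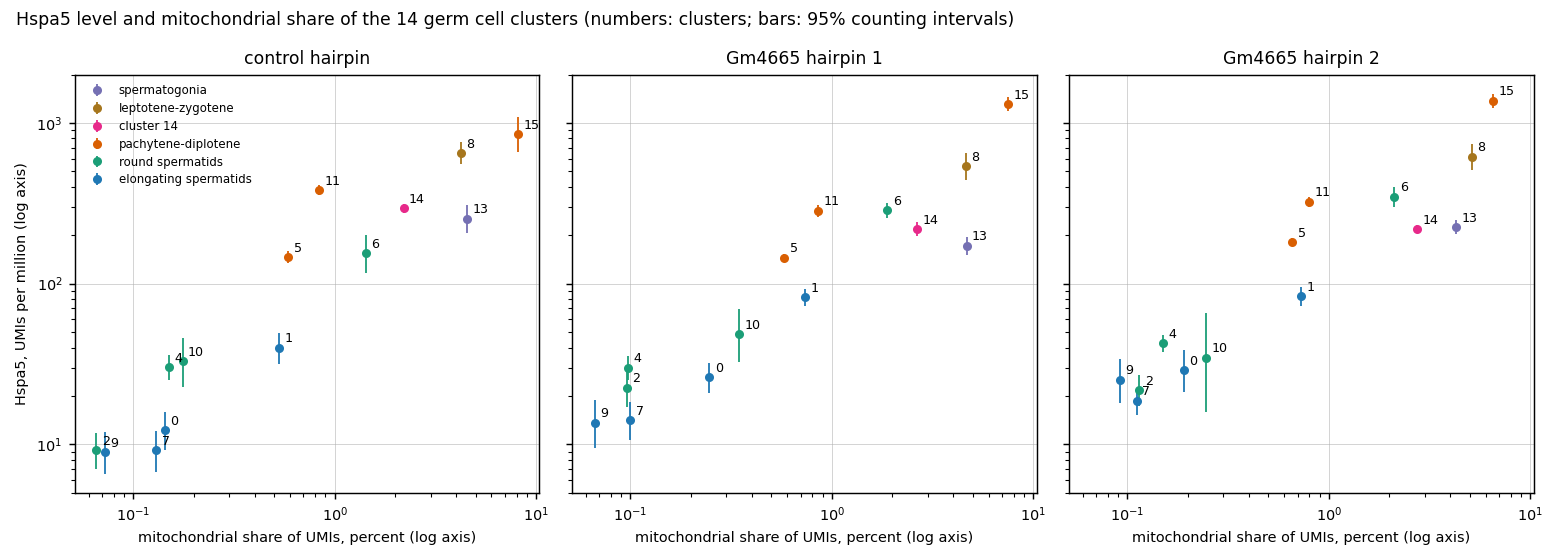
Hspa5 level (CPM, log axis) against the mitochondrial share of UMIs (percent, log axis) for the 14 germ cell clusters, 1 panel per library; colours are the germ cell groups, numbers the clusters and bars 95% counting intervals. Clusters 15 and 6 stand at the top of their groups on both axes, at 852 and 154 CPM in the control library.

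The second comparison is that of each hairpin with the control library. Both hairpins share that 1 control, and fewer cells of a type and less RNA per cell cannot be told apart where cells of several types are summed. A gene was counted as higher or lower if it differed at least 1.5-fold in the same direction with both hairpins, on a log2 scale with 1 CPM added. Genes needed a mean of at least 10 CPM over the libraries and at least 30 UMIs. A gene below 10 CPM in the control can thus pass this filter through the hairpin libraries where it is high.

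Over all cells, Hspa5, Hspd1 and Hspe1 were counted as higher and no member as lower. That is 3 of 10 members, against 11.4% of 7068 genes counted as higher and 4.97% as lower. Hspa5 was at 77.3, 121 and 156 CPM, Hspd1 at 8.61, 14.2 and 27.0, and Hspe1 at 39.2, 74.3 and 115. Hspd1 was below 10 CPM in the control and passed the filter through the hairpin libraries. The median log2 fold of the members was 0.43 and 0.55 with hairpins 1 and 2, against 0.23 and 0.25 over all genes. This split depends on the scaling: with TMM factors, which bring the median of all genes to -0.04 and -0.08, the genes counted as higher and lower went from 806 and 351 to 164 and 1045, with median-of-ratios factors to 147 and 1099, and without the 20 most abundant genes to 578 and 478. Relative to the median of all genes, Hspe1 was the 1 member still counted as higher, by 0.67 and 1.27 on the log2 scale, and Hspa1l was counted as lower, with -0.74 and -1.01.

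The mix of cells moved with the higher levels over all cells. The libraries differed in the number of spermatogonia, the group in which Hspd1 and Hspe1 were highest, and of non-germ cells. Non-germ cells gave 2.43%, 15.2% and 22.9% of the Hspa5 UMIs, 16.8%, 29.1% and 45.0% of those of Hspa8, and 17.2%, 16.7% and 46.8% of those of Hspd1. In germ cells alone, an alternative added after seeing the data, 2 members (Hspd1 and Hspe1) were counted as higher and none as lower, against 9.81% and 4.71% of 6961 genes, and Hspa5 was at 77.2, 108 and 129 CPM. With the germ cell groups weighted to the mix of the control, no member was counted as higher or lower: Hspa5 was at 77.2, 86.0 and 91.7 CPM, Hspe1 at 31.1, 32.0 and 35.5, and Hspd1 at 6.64, 6.24 and 7.41. The 26 control spermatogonia were too few for a comparison within that group.

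In pachytene to diplotene spermatocytes no member was counted in either direction, where 0.815% of 6867 genes were counted as higher and 0.917% as lower. Hsph1, the member farthest from the control with hairpin 2, was at 13.96, 11.3 and 10.2 CPM, with ratios of 0.81 (0.60 to 1.09) and 0.73 (0.53 to 1.002). In cluster 14, Hspa1l was counted as lower, at 105, 68.6 and 51.8 CPM, and none as higher (5.53% and 2.43% of 7579 genes). The ratio to the control was 0.65 (0.52 to 0.81) and 0.49 (0.42 to 0.58). The summed markers of elongating spermatids were in the same order in this cluster, at 7.03%, 4.56% and 4.27% of UMIs, and their part was not tested. Hspa8 was at 355, 252 and 233 CPM in cluster 14, short of the mark with hairpin 1 and past it with hairpin 2, with ratios of 0.71 (0.64 to 0.80) and 0.66 (0.61 to 0.71).

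In round spermatids Hspa5 was the 1 of 9 members counted as higher, against 5.17% of 6614 genes, and no member was counted as lower, against 3.69%. It was at 22.6, 64.8 and 50.1 CPM, which is 2.87-fold (2.48 to 3.33) and 2.22-fold (1.91 to 2.57) the control. Both hairpin libraries lay above the control, and hairpin 1 above hairpin 2. Cluster 6, the Hspa5-rich cluster, held 7.43%, 30.4% and 11.6% of the round spermatids and 20.4%, 61.5% and 34.4% of their Hspa5 UMIs. Without cluster 6, a choice made after seeing the data, Hspa5 was at 18.6, 29.0 and 34.6 CPM, with folds of 1.56 (1.29 to 1.90) and 1.86 (1.57 to 2.22), and was still counted. Scaling by TMM factors turned the number of genes counted as higher and lower in this class from 342 and 244 to 164 and 504, and Hspa5 was counted in both.

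In elongating spermatids 3 of 7 members were counted as higher, against 9.38% of 5009 genes, and none as lower, against 1.68%. Hspa5 was at 13.5, 33.7 and 35.7 CPM, with folds of 2.50 (2.13 to 2.94) and 2.65 (2.25 to 3.12). Hspa2 was at 110, 185 and 184 CPM, with folds of 1.69 (1.59 to 1.79) and 1.67 (1.57 to 1.78). Hsp90aa1 was at 188, 327 and 305 CPM, with folds of 1.74 (1.66 to 1.82) and 1.62 (1.54 to 1.70). Hspa2 and Hsp90aa1 are genes whose highest levels lay in spermatocytes, and in pachytene to diplotene spermatocytes themselves their folds were 0.91 and 0.99 and 1.02 and 1.02. The genes counted as higher and lower went from 470 and 84 to 337 and 157 with TMM factors and to 263 and 207 with median-of-ratios factors, under which Hspa5 alone of the members was counted.

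**Figure D4:**
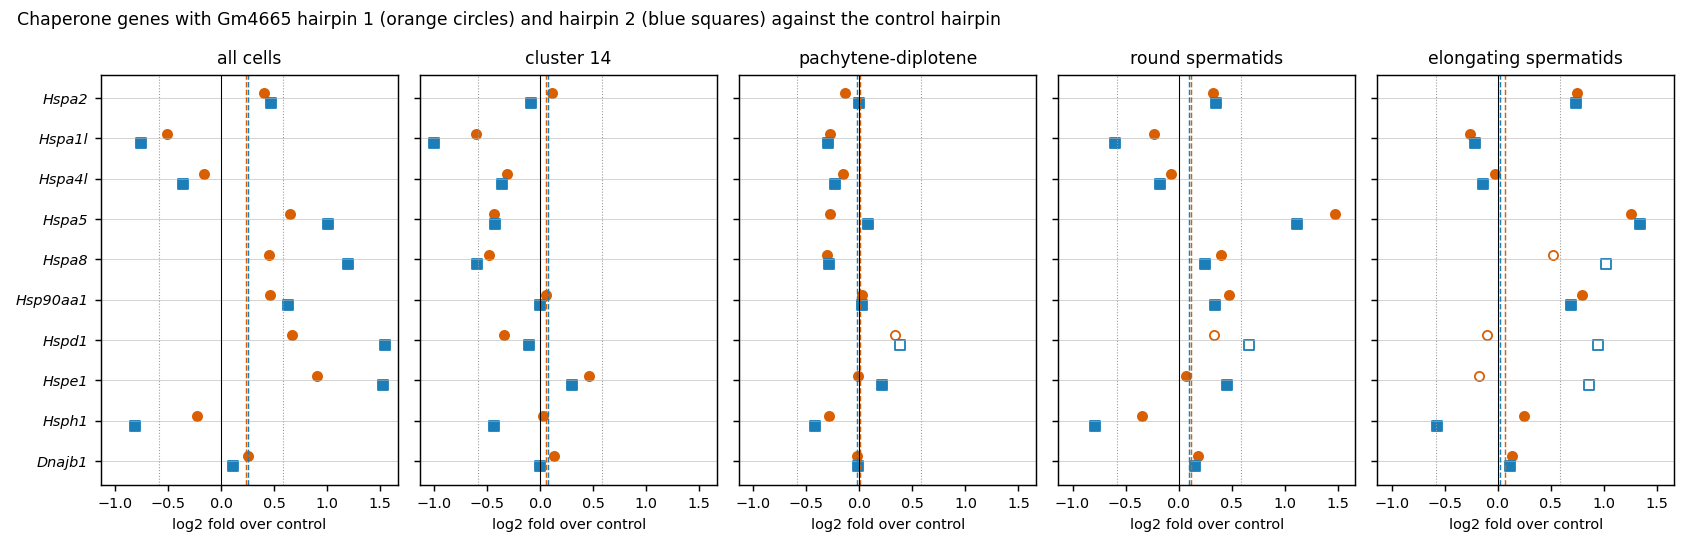
Log2 fold of each member over the control library (x axis) in all cells and in the 4 groups with at least 50 cells per library. Orange circles are hairpin 1 and blue squares hairpin 2, open symbols genes below the filter, dashed lines the median of all genes and dotted lines the 1.5-fold marks; Hspa5 stands beyond the mark in both spermatid groups.

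The spermatid clusters were then taken one by one. They are cells of the same 3 libraries with the same control, so the cluster counts here and below are not repeated observations. The counts were made for the members only, without the filter, and no share over all genes stands beside them. The median log2 fold of all genes was itself above 0, at 0.12 and 0.10 in round and 0.07 and 0.02 in elongating spermatids. Hspa5 was above the control with both hairpins in 7 of 8 spermatid clusters and below in none. The exception was cluster 4, with 30.2, 29.9 and 42.7 CPM. Hspa2 and Hsp90aa1 were each above the control with both hairpins in 7 of the 8 and below in cluster 6. The Hspa2 levels of the libraries were close in round clusters 4 (825, 832 and 852 CPM) and 2 (322, 333 and 325 CPM) and apart in cluster 10 (307, 476 and 415 CPM). With the clusters weighted to the control mix, the log2 fold of Hspa2 in round spermatids was 0.05 and 0.04. In elongating spermatids it was 0.60 and 0.60 when weighted in the same way, that of Hsp90aa1 0.59 and 0.55 and that of Hspa5 0.85 and 1.14. Hsp90aa1 was then below the 1.5-fold mark with hairpin 2 and no longer counted. Cluster 1, the elongating cluster with the most Hspa2, held 11.5%, 26.9% and 25.7% of the elongating spermatids.

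Hspa1l and Hspa4l went the other way. Hspa1l was below the control with both hairpins in 6 of 8 spermatid clusters and above in 1, and Hspa4l below in 6 and above in none. In elongating spermatids the ratios were 0.84 (0.80 to 0.88) and 0.86 (0.82 to 0.90) for Hspa1l and 0.99 (0.96 to 1.01) and 0.91 (0.88 to 0.93) for Hspa4l, and neither passed the mark. In round spermatids Hspa1l was at 0.85 (0.78 to 0.93) and 0.66 (0.60 to 0.72), past the mark with hairpin 2. Weighted to the control mix of clusters, its log2 folds there were 0.03 and -0.35. Hsph1 was lower with hairpin 2 in round and elongating spermatids, with ratios of 0.57 (0.51 to 0.65) and 0.67 (0.59 to 0.75), and hairpin 1 gave 0.78 (0.69 to 0.88) and 1.19 (1.08 to 1.32), so the hairpins lay on opposite sides of the control in elongating spermatids only. With the clusters weighted to the control mix, the log2 folds of Hsph1 were 0.14 and -0.31 in round and 0.31 and -0.20 in elongating spermatids, so that hairpin 1 turned to above the control in round spermatids. Dnajb1 was at 1.13 and 1.12 times the control in round and 1.10 and 1.09 times in elongating spermatids, where median-of-ratios factors turned its log2 fold to -0.03 and -0.06.

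**Figure D5:**
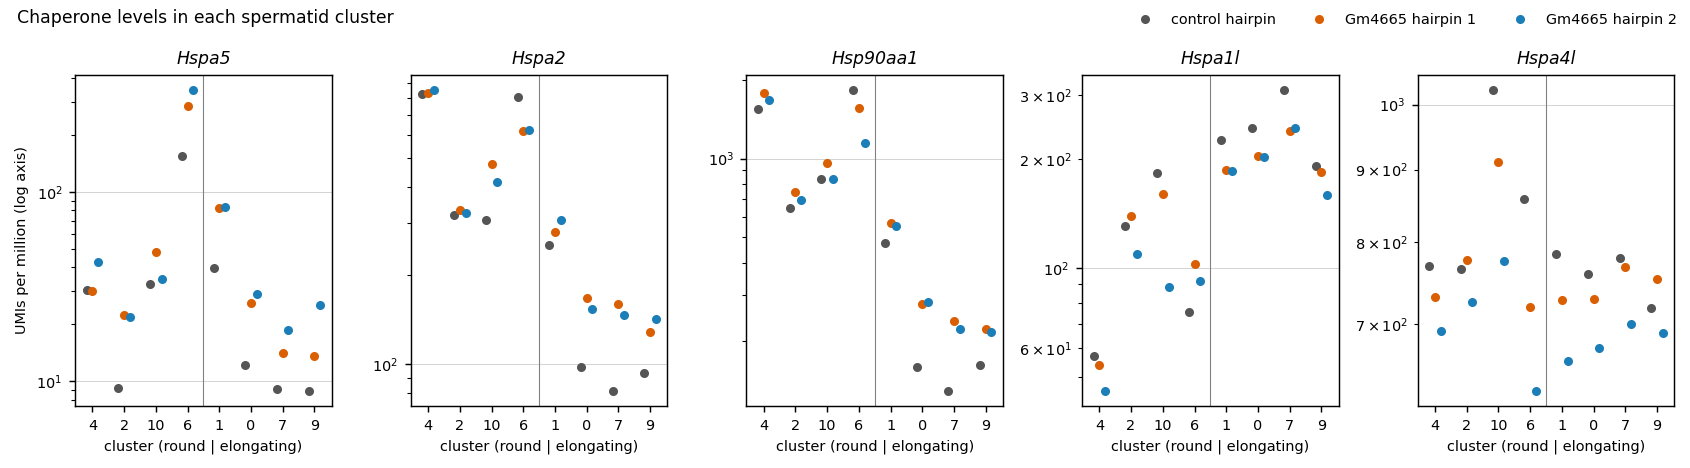
Levels of 5 genes (CPM, log axis, a scale of its own per gene) in the 4 round and 4 elongating spermatid clusters, 1 point per library. Hspa5 lies above the control with both hairpins in 7 of 8 clusters, and Hspa4l above it with both in none. The clusters come from the same libraries and are not repeated observations.

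Other values moved with the spermatid results. The summed level of the 12 pachytene to diplotene markers in round spermatids was 1233, 1780 and 1642 CPM with none at 0, and in elongating spermatids 617, 811 and 802. The summed level of the 13 mitochondrial genes was 1446, 3648 and 2375 CPM in round and 1630, 2872 and 2586 in elongating spermatids. Their part in the higher levels of Hspa5, Hspa2 and Hsp90aa1 was not tested. Markers of antibody-producing cells were at 10.3, 25.3 and 85.8 CPM in round spermatids. At the ratio of Hspa5 to these markers in cluster 18, the main cluster of such cells, they would come with 0.723, 0.618 and 2.65 CPM of Hspa5 in round spermatids and 0.363, 0.438 and 2.38 in elongating spermatids. The control ratio comes from only 3 cells of cluster 18. At the ratio of Hspa5 to the pachytene to diplotene markers in pachytene to diplotene spermatocytes, the markers would come with 70.55, 91.6 and 110.5 CPM of Hspa5 in round spermatids and 35.3, 41.7 and 54.0 in elongating spermatids. The measured levels were 22.6, 64.8 and 50.1 CPM and 13.5, 33.7 and 35.7 CPM. Both calculations take every marker UMI in spermatids as carried over from the other cells, which was not tested, so they give no share of the Hspa5 level.

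Among the other chaperone lists, 5 of 15 tested genes of HSP90 and its cochaperones were counted as higher over all cells and none as lower, beside 11.4% and 4.97% of all genes. These were Hsp90ab1, the constitutive HSP90, at 124, 205 and 293 CPM, the HSP70 cochaperone St13 at 155, 260 and 258 CPM, Ptges3, Ppid and Rpap3. Rpap3, at 3.89, 17.0 and 18.2 CPM, passed the filter through the hairpin libraries. The median log2 fold of this list was 0.43 and 0.73. In elongating spermatids 3 of 10 were higher (Hsp90b1, Ptges3 and St13) and none lower, beside 9.38% and 1.68% of all genes. Over all cells, 4 of 32 J-protein genes were higher (Dnaja1, Dnajc8, Dnajc24 and Dnajc25) and 1 lower, beside 11.4% and 4.97% of all genes. The lower one was the testis gene Dnajb7 at 249, 160 and 151 CPM, and the medians of the list were 0.07 and 0.00. The abundant testis J-protein genes Dnajb3 and Dnajb8 were at 2202, 1828 and 1706 and at 1056, 796 and 720 CPM.

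Some genes that act with Hspa5 in the ER were counted as higher in elongating spermatids. Of 5 genes of the unfolded protein response tested there 3 were, beside 9.38% of all genes: Sdf2l1, which forms a complex with ER chaperones, at 5.99, 13.6 and 17.0 CPM, Creld2 at 55.9, 85.0 and 91.6, and Manf at 80.0, 124 and 147. Sdf2l1 was below 10 CPM in the control and passed the filter through the hairpin libraries. None was counted as lower, though 1 of the 5 was below the control with both hairpins. The median log2 fold of the list was 0.60 and 0.70 against 0.07 and 0.02 over all genes. Herpud1, among the most abundant genes of this list, went the other way over all cells, at 360.5, 258 and 229 CPM. It was counted as lower in cluster 14, as were 5.53% of all genes. Of 8 ER folding genes tested in elongating spermatids, 2 were counted as higher (Pdia6 and Clgn) and none as lower. Of all genes there, 9.38% and 1.68% were. The protein disulfide isomerase gene Pdia6 was at 9.43, 24.8 and 26.6 CPM in elongating spermatids and at 24.2, 58.7 and 42.5 in round spermatids. In elongating spermatids Pdia6 was below 10 CPM in the control and passed the filter through the hairpin libraries. Clgn, a lectin chaperone of the testis ER, was at 54.8, 96.7 and 85.2 CPM in elongating spermatids. In round spermatids 1 of 6 genes of the unfolded protein response (Sdf2l1) and 1 of 9 of ER folding (Pdia6) were counted as higher, beside 5.17% of all genes, and counts of 1 say nothing of the lists as a whole. The stress response factor genes Ddit3, at 59.98, 63.6 and 70.8 CPM in elongating spermatids, and Atf4, at 6.23, 5.54 and 7.65, were not. Over all cells Calr3, the testis calreticulin, was lower at 202, 124 and 93.4 CPM. Edem1, a gene of ER protein disposal, was higher at 4.88, 16.8 and 33.8 CPM, and also passed the filter through the hairpin libraries. The antibody-lineage markers moved with Edem1 over all cells, at 29.1, 629 and 1145 CPM, and Edem1 was at only 1.57, 2.05 and 3.998 CPM in elongating spermatids. Their part was not tested.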

How the data were processed

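Single testis cells of 3 libraries were measured with the 10x 3' kit (version 2), per the labels' protocols, and processed with Cell Ranger 1.3.1 (mm10) and Seurat 2.0.0, per the submitters' processing notes. The deposited values are natural log values, ln(1 + 10000 × UMIs / cell total). Whole UMIs were recovered from them: 100.0% of 20140203 non-zero values came within 0.01 of a whole number. Columns were matched to hairpins 1 and 2 by the last digit of the column prefix, and if that match is wrong the hairpins swap.

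Library totals were 40405313, 38330044 and 44640351 UMIs (control, hairpin 1, hairpin 2). Cells were clustered with scanpy 1.11.5 (2000 variable genes, 30 components, 15 neighbours, Leiden resolution 0.8), and named by marker lists. Cluster 14 came as a sixth germ cell group beside the 5 named ones. UMIs were summed per library and group and scaled to 1000000 (CPM). Intervals are exact 95% counting intervals (Poisson for levels, conditional binomial for ratios). No test between libraries was made. The count procedure was tried on simulated UMIs with counting error only. The simulation had no differences between animals or in the mix of cells, so it says nothing of those. A doublet caller marked 17 of 5023 cells (0.338%), too few to be usable, so none was removed. The sources used here do not say whether doublets had been removed earlier.

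The 10 members were those listed for this work. They and the other gene and marker lists were chosen with earlier results of these data known. From each other list the rule named up to 3 genes with the largest fold shared by both hairpins over all cells and up to 2 with the highest level, and for likeness up to 3 genes per member. Other genes named beside a count, the ER genes of spermatids and of clusters 6 and 15, Ddit3, Atf4, Hspa1a and Hspa1b were chosen after their values were seen. Alternatives were TMM factors (computed in numpy 2.4.6), median-of-ratios factors, totals without the 20 most abundant genes, a pseudocount of 10 CPM, a 2-fold mark, no filter, leaving out the 5% of cells with the most UMIs, other clusterings and weighting to the control mix. Gene positions are from GENCODE vM21. Transcripts nearly identical to a member's 3' end were searched for using blastn 2.17.0.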

Additional observations from a re-analysis of the deposited data

Results flagged for a closer look

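Hspa2 was above the control with both hairpins in elongating spermatids, with log2 folds of 0.75 and 0.74, and below it with both in pachytene to diplotene spermatocytes, with -0.14 and -0.0086. The last value is close to 0, and it changes sign with TMM factors. Hspa5 was above the control with both hairpins in round spermatids (1.48 and 1.12) and in elongating spermatids (1.26 and 1.34) and below it with both in cluster 14 (-0.43 and -0.43). These opposite directions between cell groups are what marked the results for a closer look. The differences between the groups were not tested, since each condition is 1 library.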

How the results depend on the processing

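Over all cells the number of members counted as higher went from 3 to 1 (Hspe1) with TMM or median-of-ratios factors, to 0 with a 2-fold mark and to 0 with germ cell groups weighted to the control mix, where the log2 fold of Hspd1 with hairpin 1 turned to -0.0792. The number counted as lower went from 0 to 1 (Hspa1l) with TMM or median-of-ratios factors. In elongating spermatids the number counted as higher went from 3 to 1 (Hspa5) with median-of-ratios factors or a 2-fold mark, and to 2 (Hspa2 and Hspa5) with clusters weighted to the control mix. In round spermatids Hspa5 was counted under each alternative run there, and no member was counted in pachytene to diplotene spermatocytes. Between 8 and 9 members had a common highest group under the alternatives run. Of 660 values of single members under the alternatives, 452 moved within their counting interval, 207 moved beyond it and 1, that of Hspd1 above, changed the sign of a called value. Leaving out a library was not possible with 1 per condition. No paired analysis was possible because each condition has 1 library and the labels do not tie cells to mice.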
